A study of Mus musculus with 12 samples.

Results

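Expression of 4 genes that set how much active thyroid hormone a cell makes, admits and senses was followed in mouse heart: Dio2, Slc16a10, Thra and Thrb. They were taken by gene symbol, and all 4 had a row among the 14957 genes of the deposited count tables. The 4 were selected on levels in these same libraries: the Dio2 difference between TAC-mScarlet and Sham-NT hearts had already been seen, and which values of the other 3 were used, or what threshold, is not recorded. Their own levels and fold changes are therefore given as a description, without p-values. Of the 14957 genes, 13910 passed a filter on low counts, and all 4 were among them.

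The samples were ventricles of 12 wild-type C57Bl/6J mice, 4 in each group, read by bulk RNA sequencing. TAC-BacNav mice had transverse aortic constriction, a surgical narrowing of the aorta that makes the left ventricle pump against a higher pressure, and received the AAV9 vector AAV9-MHCK7-BacNav-mScarlet. TAC-mScarlet mice had the same constriction and received AAV9-MHCK7-mScarlet, whose cargo is the fluorescent protein alone. Sham-NT mice had sham surgery and saline (PBS). BacNav is a bacterial voltage-gated sodium channel, MHCK7 is a promoter active in heart and skeletal muscle, and the genotype of every mouse is given as WT. Both TAC groups carried a vector and Sham-NT did not, so in any comparison with Sham-NT the effects of constriction and of vector cannot be told apart. The sources used here do not give age, sex or the time after surgery.

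Thyroid hormone leaves the thyroid mostly as the prohormone thyroxine (T4). The type 2 deiodinase, made from Dio2, removes an iodine from T4 to give the active hormone triiodothyronine (T3) inside the cell. Transporters in the plasma membrane, among them the T-type amino acid transporter made from Slc16a10 (MCT10), move the hormones across it. Receptors made from Thra and Thrb sit on DNA, usually paired with a retinoid X receptor, and turn genes up or down according to whether T3 is bound. In the heart T3 is known to raise the fast myosin gene Myh6 and the calcium pump gene Atp2a2 and to lower the slow myosin gene Myh7.

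Total counts ran from 5.36 to 11.5 M per library. They were 7.36 to 11.5 M in TAC-BacNav, 8.28 to 9.81 M in TAC-mScarlet and 5.36 to 7.84 M in Sham-NT. Every TAC-mScarlet library was deeper than every Sham-NT library, so depth and group cannot be told apart in that comparison. Libraries fell into 2 sets that cut across the study's groups. The immediate early gene Fos lay between 54.9 and 301.4 CPM in 7 libraries (TAC-BacNav mice 1 and 2, TAC-mScarlet mice 1, 2 and 3, Sham-NT mice 1 and 2) and between 1.602 and 7.89 CPM in the other 5, where CPM is the count scaled to a common library total with TMM, edgeR's library scaling. TAC-mScarlet mouse 3 also stood apart, with a summed fibroblast marker level of 6114 CPM, against 1955 to 2780 CPM in the other TAC-mScarlet libraries. All 8 listed cardiomyocyte markers were present in every group (summed level 43360 to 61930 CPM in TAC-BacNav, 42590 to 53560 CPM in TAC-mScarlet and 57200 to 73810 CPM in Sham-NT). Of 4 thyroid follicular markers only thyroglobulin (Tg) had a row, at 0.464 to 2.90 CPM, and the 6 adipocyte markers were not analysed here. In bulk tissue, fewer cells of a type and less RNA per cell cannot be told apart.

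The Dio2 promoter is shown here because Dio2 is the gene that varied most. The RefSeq sequence (GRCm38.p6, chr12:90738989-90739288, minus strand, 250 bases before to 50 after the start) holds 1 full cAMP response element, TGACGTCA, in capitals, 95 to 88 bases before the start. The start used by RefSeq lies 600 bases upstream of the GENCODE gene start.

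Dio2: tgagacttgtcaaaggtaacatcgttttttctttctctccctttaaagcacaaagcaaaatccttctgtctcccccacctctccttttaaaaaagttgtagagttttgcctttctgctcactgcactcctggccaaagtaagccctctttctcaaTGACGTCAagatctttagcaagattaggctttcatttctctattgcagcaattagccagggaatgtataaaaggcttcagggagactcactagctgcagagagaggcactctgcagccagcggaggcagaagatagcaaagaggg

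TGACGTCA is its own reverse complement, so a search of both strands for it is a search of one. It contains the shorter core TGACG on both strands, and these 2 cores, both inside the full element, are the only TGACG matches in the window. Across 32851 mouse promoters of the same length, 1.79% held TGACGTCA and 20.8% held TGACG on either strand. The receptor half-site AGGTCA or its reverse complement TGACCT was found in 16.3% of promoters and in none of the Dio2 letters. Both Thrb promoters and the Slc16a10 promoter were searched the same way. The Thrb window at chr14:17660710-17661009 held 1 TGACG and 1 AGGTCA, the Thrb window at chr14:17981394-17981693 held neither, and the Slc16a10 window held none of the 3 motifs. A match describes letters only.

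Dio2 (ENSMUSG00000007682.6, GRCm38 chr12:90724552-90738438, minus strand, protein-coding) had the largest differences of the 4 genes. In TAC-BacNav mice 1 to 4 its level was 1.51, 4.59, 12.1 and 12.2 CPM. In TAC-mScarlet mice 1 to 4 it was 9.68, 10.5, 88.1 and 37.2 CPM. In Sham-NT mice 1 to 4 it was 1.59, 1.56, 2.07 and 1.44 CPM. Every TAC-mScarlet library lay above every Sham-NT library, whereas TAC-BacNav overlapped both other groups, with mouse 1 at the Sham-NT level and mice 3 and 4 above TAC-mScarlet mice 1 and 2. These levels rest on 290 counts over the 4 TAC-BacNav libraries, 1414 over TAC-mScarlet and 41 over Sham-NT, so the Sham-NT level rests on few counts. The mean was 7.60 ± 5.40 CPM in TAC-BacNav, 36.4 ± 36.8 CPM in TAC-mScarlet and 1.67 ± 0.278 CPM in Sham-NT (SD, n = 4 each).

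**Figure D1:**
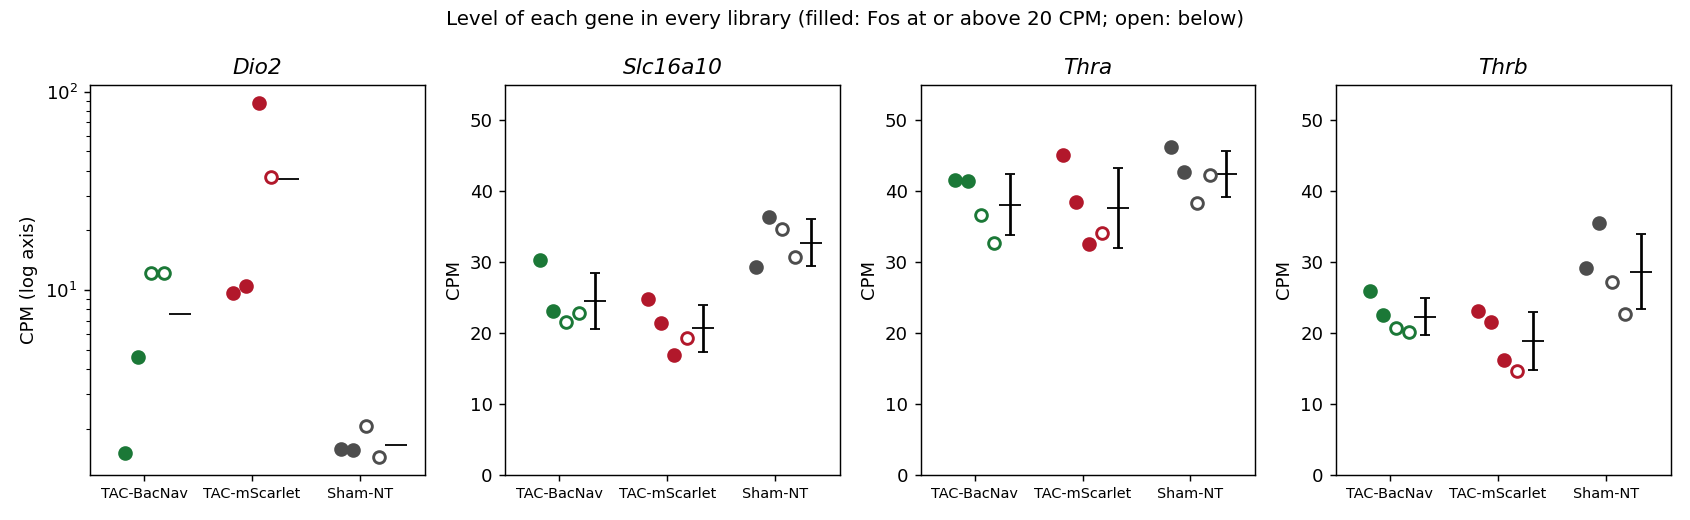
Level of Dio2, Slc16a10, Thra and Thrb in each of 12 libraries (CPM, y axis; logarithmic for Dio2 and linear from 0 for the others) by group on the x axis, with filled points where Fos was at or above 20 CPM and open points where it was below. The horizontal dash is the group mean and the bar its SD (n = 4; the Dio2 panel shows the mean alone); all 4 TAC-mScarlet points for Dio2, 9.68 to 88.1 CPM, lie above the Sham-NT points, 1.44 to 2.07 CPM, while Thra groups overlap.

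The fitted log2 fold change of Dio2 in TAC-mScarlet against Sham-NT, whose groups did not overlap, was 4.42 ± 0.97 (SE; 95% interval 2.26 to 6.59). TAC-mScarlet mouse 3 carried much of its size: without it the value was 3.49. In TAC-BacNav against TAC-mScarlet the fitted log2 fold change was -2.25 ± 0.78 (SE; 95% interval -3.99 to -0.52), and without TAC-mScarlet mouse 3 it was -1.32. In TAC-BacNav against Sham-NT it was 2.17 ± 1.02 (SE), and its interval, -0.10 to 4.44, included 0. Intervals for Dio2 and the other genes followed here are a description. They allow neither for the choice of the genes on these libraries nor for the number of genes tested, so leaving out 0 is not a test. Within each Fos set the signs were the same and the sizes unequal. On the high-Fos side Dio2 was 1.51 and 4.59 CPM in TAC-BacNav, 9.68 to 88.1 CPM in TAC-mScarlet and 1.56 and 1.59 CPM in Sham-NT, with a log2 fold change of -3.58 for TAC-BacNav against TAC-mScarlet and 0.94 for TAC-BacNav against Sham-NT. On the low-Fos side it was 12.1 and 12.2 CPM in TAC-BacNav, 37.2 CPM in the 1 TAC-mScarlet library and 1.44 and 2.07 CPM in Sham-NT, with log2 fold changes of -1.62 and 2.74 in the same comparisons. TAC-mScarlet against Sham-NT gave 4.52 on the high-Fos side and 4.36 on the low-Fos side.

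Patterns were compared among 12342 tested genes with a mean of at least 1 CPM and a regular symbol. Gm and Rik genes and hyphenated symbols were left out. The 3 genes whose pattern over the 12 libraries was most like that of Dio2 were Postn, Thbs4 and Tgfb3. Likeness was the mean absolute difference of standardised log2(CPM + 1). It was 0.0766 for Postn, 0.0891 for Thbs4 and 0.101 for Tgfb3, against a median of 1.07 over the genes compared. Postn encodes periostin, a matrix protein made by activated fibroblasts; Thbs4 encodes a thrombospondin and Tgfb3 a transforming growth factor beta. Postn was 56.2, 135.2, 290.2 and 281.2 CPM in TAC-BacNav mice 1 to 4, 212.8, 263.2, 2067 and 735.8 CPM in TAC-mScarlet mice 1 to 4, and 46.8, 39.6, 52.4 and 49.99 CPM in Sham-NT mice 1 to 4. Within TAC-mScarlet both Postn and Dio2 were highest in mouse 3, next in mouse 4, then mouse 2 and mouse 1, and within TAC-BacNav both were lowest in mouse 1 and next in mouse 2. The summed level of the 8 fibroblast markers, Postn among them, was 1596 to 2305 CPM in TAC-BacNav, 1955 to 6114 CPM in TAC-mScarlet and 1193 to 1451 CPM in Sham-NT. These markers did not move alike. Their log2 fold changes in TAC-mScarlet against Sham-NT ran from 0.10 for Dpt to 4.12 for Postn, with Pdgfra at 0.54. Macrophage markers (8 of 8 present) summed to 710.0 to 844.3 CPM in TAC-BacNav, 726.0 to 1190 CPM in TAC-mScarlet and 484.6 to 639.9 CPM in Sham-NT. The part of either cell type in the Dio2 levels was not tested.

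**Figure D2:**
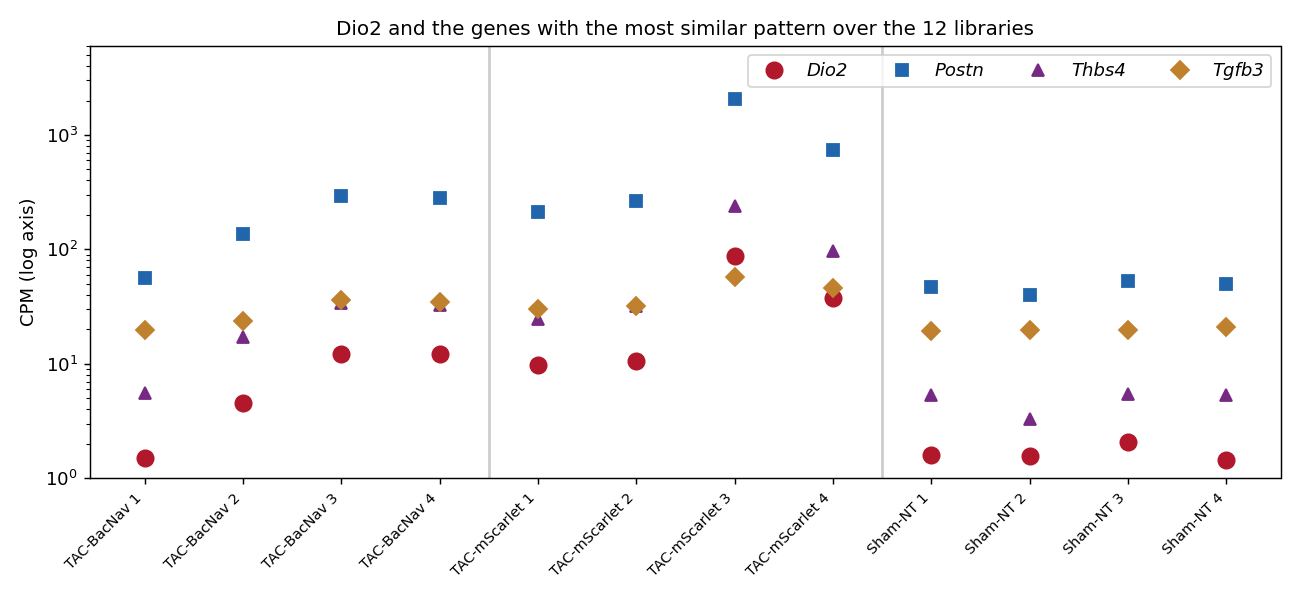
Level of Dio2 and of the 3 genes with the most similar pattern, Postn, Thbs4 and Tgfb3, in each library (CPM, logarithmic y axis; libraries by group on the x axis, separated by vertical lines). TAC-mScarlet mouse 3 has the highest level of Dio2 (88.1 CPM) and of Postn (2067 CPM), and TAC-BacNav mouse 1 lies near the Sham-NT libraries for all 4 genes.

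Slc16a10 (ENSMUSG00000019838.11, GRCm38 chr10:40033532-40142258, minus strand, protein-coding) encodes the transporter. Its level was 30.3, 23.2, 21.6 and 22.8 CPM in TAC-BacNav mice 1 to 4, 24.9, 21.4, 17.0 and 19.4 CPM in TAC-mScarlet mice 1 to 4, and 29.3, 36.3, 34.7 and 30.8 CPM in Sham-NT mice 1 to 4. All TAC-mScarlet libraries lay below all Sham-NT libraries; TAC-BacNav overlapped both, mouse 1 lying within the Sham-NT range and the other 3 within the TAC-mScarlet range. The mean was 24.5 ± 3.97 CPM in TAC-BacNav, 20.7 ± 3.34 CPM in TAC-mScarlet and 32.8 ± 3.26 CPM in Sham-NT (SD, n = 4 each). The log2 fold change was -0.67 ± 0.15 in TAC-mScarlet against Sham-NT (SE; 95% interval -0.99 to -0.35), 0.25 ± 0.15 in TAC-BacNav against TAC-mScarlet (SE; interval -0.07 to 0.56) and -0.42 ± 0.15 in TAC-BacNav against Sham-NT (SE). Unlike Dio2, it varied little within groups, the highest library being 1.40 times the lowest in TAC-BacNav, 1.46 times in TAC-mScarlet and 1.24 times in Sham-NT. The gene with the most similar pattern was Tnni3k, a heart-restricted kinase gene, at 89.5 ± 13.3 CPM in TAC-BacNav, 75.3 ± 14.99 CPM in TAC-mScarlet and 118.3 ± 10.8 CPM in Sham-NT (SD, n = 4 each); Adhfe1 and Mccc2 came next.

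Thra (ENSMUSG00000058756.13, GRCm38 chr11:98740638-98769006, plus strand, protein-coding) encodes the receptor TRα1 and a splice form, TRα2, that does not bind T3; counts per gene cannot separate them. The level was 41.6, 41.5, 36.7 and 32.6 CPM in TAC-BacNav mice 1 to 4, 45.2, 38.5, 32.6 and 34.1 CPM in TAC-mScarlet mice 1 to 4, and 46.2, 42.8, 38.3 and 42.3 CPM in Sham-NT mice 1 to 4. The 3 groups overlapped in every pair. The log2 fold change was -0.17 ± 0.13 in TAC-mScarlet against Sham-NT (SE; 95% interval -0.45 to 0.10). It was 0.02 ± 0.13 in TAC-BacNav against TAC-mScarlet (SE; interval -0.25 to 0.29), below 0 under 5 of 18 alternatives, among them scaling by library size (-0.01).

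Thrb (ENSMUSG00000021779.17, GRCm38 chr14:17660261-18038090, plus strand, protein-coding) encodes the receptor TRβ. Its level was 25.9, 22.6, 20.7 and 20.1 CPM in TAC-BacNav mice 1 to 4, 23.1, 21.5, 16.2 and 14.6 CPM in TAC-mScarlet mice 1 to 4, and 29.1, 35.5, 27.2 and 22.8 CPM in Sham-NT mice 1 to 4. The groups overlapped, TAC-mScarlet mouse 1 lying above Sham-NT mouse 4. The log2 fold change was -0.60 ± 0.17 in TAC-mScarlet against Sham-NT (SE; 95% interval -0.97 to -0.23), 0.24 ± 0.17 in TAC-BacNav against TAC-mScarlet (SE; interval -0.12 to 0.61) and -0.36 ± 0.17 in TAC-BacNav against Sham-NT (SE). Impa2 and Abcd3 were among the 3 genes with the pattern most like it, and Mgst3, Nme6 and Clcn1 the pattern most like that of Thra.

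Compared per kilobase of exon, the order of levels was the same in TAC-BacNav and Sham-NT, with Thra highest, then Slc16a10, then Thrb and Dio2 lowest. In TAC-BacNav they averaged 8.26 CPM per kb for Thra, 3.33 for Slc16a10, 3.02 for Thrb and 1.31 for Dio2. In TAC-mScarlet they averaged 8.15 CPM per kb for Thra, 6.26 for Dio2, 2.81 for Slc16a10 and 2.55 for Thrb. In Sham-NT they averaged 9.19 CPM per kb for Thra, 4.46 for Slc16a10, 3.87 for Thrb and 0.286 for Dio2. Slc16a10 and Thrb lay closer to each other than the SD of either in TAC-BacNav and TAC-mScarlet, while in Sham-NT they differed by more than the SD of Slc16a10, 0.444 CPM per kb, and by less than that of Thrb, 0.717 CPM per kb. Dio2 in TAC-mScarlet had an SD, 6.32 CPM per kb, as large as its mean. The ratio of Thra to Thrb per length was 2.74 ± 0.185 in TAC-BacNav, 3.25 ± 0.365 in TAC-mScarlet and 2.43 ± 0.446 in Sham-NT (SD, n = 4 each). Lengths were all annotated exon bases, 4614 for Thra and 7403 for Thrb, whether or not used in heart. Thra counts include TRα2, so the size of the ratio is not a balance of T3-binding receptors. The TAC-mScarlet range, 2.87 to 3.74, overlapped the TAC-BacNav range, 2.58 to 2.95, and the Sham-NT range, 1.93 to 2.98.

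Thra shares 263 exon bases with Nr1d1 (GRCm38 chr11:98767932-98775333), the gene of the clock repressor REV-ERBα on the opposite strand, and without a stated strand setting their reads there cannot be told apart. Nr1d1 was 46.6, 60.6, 39.2 and 49.3 CPM in TAC-BacNav mice 1 to 4, 69.5, 64.4, 73.3 and 56.8 CPM in TAC-mScarlet mice 1 to 4, and 31.7, 47.8, 47.2 and 52.4 CPM in Sham-NT mice 1 to 4. Every TAC-mScarlet library lay above every Sham-NT library, as in 6.33% of all genes, but edgeR's quasi-likelihood test missed the threshold (log2 fold change 0.56 ± 0.16, SE; Benjamini-Hochberg adjusted p = 0.0549). Its fold change had the opposite sign to that of Thra in this comparison, and the part of the shared bases in either level was not tested.

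**Figure D3:**
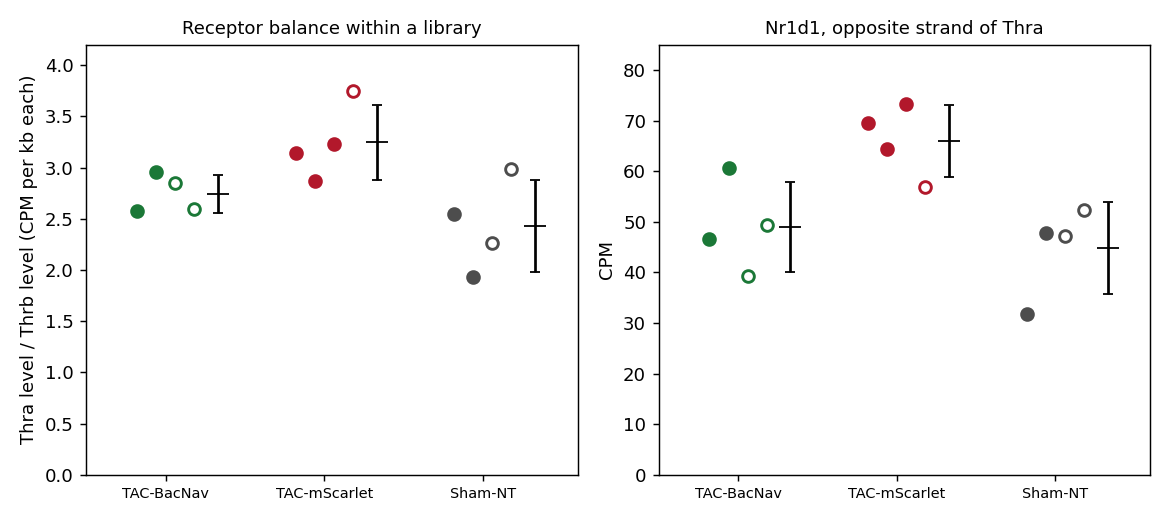
Left, ratio of the Thra level to the Thrb level within each library, both in CPM per kb; right, Nr1d1 in CPM; groups on the x axis, filled points for Fos at or above 20 CPM, dash and bar for mean and SD (n = 4). Per kb of annotated exon, whether or not used in heart, Thra exceeded Thrb in all 12 libraries, from 1.93 times to 3.74 times. Nr1d1 in TAC-mScarlet (56.8 to 73.3 CPM) lies above Sham-NT (31.7 to 52.4 CPM).

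edgeR's quasi-likelihood test called 719 of 13910 genes in TAC-mScarlet against Sham-NT, 369 higher and 350 lower, at an adjusted p under 0.05 (5.17% of genes). Of the 4 genes, 2 were called, Dio2 higher (2.65% of genes were called higher) and Slc16a10 lower (2.52% were called lower). Nothing is read from that count, since the genes were chosen with results known. For these 2 genes the groups did not overlap, as in 13.1% of all genes (6.33% lay wholly higher and 6.78% wholly lower). Neither call was kept without Sham-NT mouse 2, Sham-NT mouse 4, TAC-mScarlet mouse 3 or TAC-mScarlet mouse 4, each left out alone; that of Dio2 was also lost without Sham-NT mouse 1 or 3, in limma-voom and on the high-Fos side alone, and that of Slc16a10 on either Fos side alone. Thrb was called in DESeq2, with the Fos set as covariate, with mouse number as block and without TAC-mScarlet mouse 1. DESeq2, the covariate and the block each called more than 719 of all genes, up to 1459 with the covariate. In TAC-BacNav against TAC-mScarlet edgeR called none of 13910 genes (0%; 467 at an unadjusted p under 0.05, 3.36%), DESeq2 called 5 and limma-voom 0, so none of the 4 was called by edgeR; all 4 overlapped between these groups, where 1.7% of all genes did not. In TAC-BacNav against Sham-NT edgeR called 2 genes (0.0144%; 1544 at an unadjusted p under 0.05, 11.1%), none of the 4, and again all 4 overlapped, where 5.45% of all genes did not. Over the alternatives for that comparison 1 of the 4 was called in 1 setting, Dio2 on the low-Fos side alone, with a log2 fold change of 2.74 over 2 libraries a group. The low-Fos fit holds 1 TAC-mScarlet library, and nothing is read from that call.

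Scaling by library size in place of TMM shifted the median log2 fold change of all genes in TAC-mScarlet against Sham-NT to 0.131, against 0.0044, and its calls to 698 higher and 205 lower. Under it the log2 fold change of Dio2 was 4.56, of Slc16a10 -0.54, of Thrb -0.47 and of Thra -0.05, so the sign of each was kept.

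The rest of the pathway was read from 11 lists of 56 genes, of which 52 were in the tables and 51 were tested. The lists were made with earlier results of these data known, among them values of Myh6, Myh7, Atp2a2, Pln, Slc8a1 and Kcnd2. Counts of called list genes are therefore a description. In TAC-mScarlet against Sham-NT 6 of the 51 were called, 1 higher (Myh7) and 5 lower (among them Slc2a4, Atp2a2, Kcnd2 and Myh6), beside 5.17% of all genes; the median log2 fold change of the 51 was -0.10, against 0.0044 for all genes, and 38 of them were below 0. Without TAC-mScarlet mouse 3, Sham-NT mouse 2 or Sham-NT mouse 4, each left out alone, 1 was called, Myh7. In TAC-BacNav against TAC-mScarlet none of the 51 was called by edgeR (3 at an unadjusted p under 0.05; DESeq2 called 1 and limma-voom 0), and in TAC-BacNav against Sham-NT none was (8 at an unadjusted p under 0.05; DESeq2 called 1 and limma-voom 0).

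None of the other transporters tested passed edgeR's test in TAC-mScarlet against Sham-NT over all libraries, a test that 5.17% of all genes passed. Of 6 listed, 4 were in the tables. Slc7a5, the light chain of an amino acid carrier that also takes thyroid hormones, was 4.30 to 6.08 CPM in TAC-BacNav, 4.41 to 10.1 CPM in TAC-mScarlet and 2.08 to 4.66 CPM in Sham-NT. Its log2 fold change in TAC-mScarlet against Sham-NT was 0.96 ± 0.30 (SE; edgeR adjusted p = 0.0743), with its partner Slc3a2 at 0.30 and Slc7a8 at -0.01. Slc7a5 was called in DESeq2, under library size scaling, with the Fos set as covariate and without Sham-NT mouse 3. The deiodinases Dio1 and Dio3 were not analysed here. The cytosolic T3-binding protein gene Crym was in the tables below the filter, with 0 to 15 counts per library.

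Of the partners of the receptors, 0 of 3 retinoid X receptor genes, 0 of 6 corepressor genes and 0 of 6 coactivator genes were called by edgeR in TAC-mScarlet against Sham-NT, with median log2 fold changes of -0.31, 0.02 and -0.09. Of all genes 5.17% were called in this comparison, so a list this short will often hold no called gene. These counts of 0, and those of the short lists below, do not show that the genes were unchanged. Rxrg, the retinoid X receptor gene with the largest difference, was 46.8 to 72.8 CPM in TAC-BacNav, 40.0 to 59.5 CPM in TAC-mScarlet and 62.7 to 73.8 CPM in Sham-NT (log2 fold change in TAC-mScarlet against Sham-NT -0.47 ± 0.15, SE; edgeR adjusted p = 0.0893), and it was called with the Fos set as covariate. Ncor1, a corepressor gene, had -0.06 ± 0.11 and Ncoa1, a coactivator gene, -0.15 ± 0.13 (SE). Of the 4 genes that tag the type 2 deiodinase for breakdown or rescue it, among them Wsb1, Usp20 and Usp33, none was called, and their log2 fold changes lay between -0.06 and -0.01. Of 6 genes for making selenoproteins, the class to which the deiodinases belong, edgeR called none over all libraries. Secisbp2 was the lowest (-0.55 ± 0.16, SE; edgeR adjusted p = 0.0621), and it was called in DESeq2, with the Fos set as covariate and without Sham-NT mouse 3.

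Of 11 genes that T3 is known to raise in heart muscle, 5 fell and none rose by edgeR's test in TAC-mScarlet against Sham-NT, where 2.52% of all genes were called lower. The median log2 fold change of the 11 was -0.50, and 10 of them were below 0. The other, Atp1b1, had 0.32 ± 0.28 (SE) and was called on the high-Fos side alone and without Sham-NT mouse 3. Values of Myh6, Atp2a2 and Kcnd2 were known from earlier results when the list was made. Myh6, the fast myosin heavy chain, was 9997 to 13450 CPM in TAC-BacNav, 4764 to 9315 CPM in TAC-mScarlet and 11370 to 16940 CPM in Sham-NT, a log2 fold change of -0.74 ± 0.20 in TAC-mScarlet against Sham-NT (SE; edgeR adjusted p = 0.0442, lower in 4 of 4 libraries). Atp2a2, the calcium pump SERCA2, fell by 0.62 on the log2 scale (SE 0.15; edgeR adjusted p = 0.0323), Kcnd2, a potassium channel, by 0.85 (SE 0.21; adjusted p = 0.0319) and Slc2a4, the glucose carrier GLUT4, by 0.50 (SE 0.13; adjusted p = 0.0344). For each of these 4 the groups did not overlap, where 6.78% of all genes lay wholly lower. A call and a lack of overlap rest on the same values, so the second adds little to the first. Over 18 alternatives Atp2a2 stayed called in 11, Kcnd2 in 10, Slc2a4 in 9 and Myh6 in 5, with no change of sign. The summed cardiomyocyte markers were also lower in TAC-mScarlet (42590 to 53560 CPM) than in Sham-NT (57200 to 73810 CPM). Abundant genes such as Myl2 weigh most in that sum, and the 8 markers did not move alike. Their log2 fold changes in this comparison ran from -0.93 for Tnni3 to 0.16 for Mybpc3, the only marker above 0, with Actn2 at -0.002. The part of the cardiomyocyte markers in these differences was not tested. In TAC-BacNav against TAC-mScarlet the median of the 11 genes that T3 raises was 0.27, against 0.0036 for all genes, with 1 of 11 below 0 and no gene called. The same TAC-mScarlet libraries enter both comparisons on opposite sides, so opposite signs are partly built in. Nothing about BacNav is read from them, and the part of the cardiomyocyte markers was not tested here either.

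Of the 5 genes that T3 is known to lower there, 1 rose in TAC-mScarlet against Sham-NT, where 2.65% of all genes were called higher. The median log2 fold change of the 5 was -0.14, and 4 of them were below 0. Values of Myh7, Pln and Slc8a1 were known from earlier results when the list was made. Myh7, the slow myosin heavy chain, was 149.4, 198.9, 414.6 and 271.7 CPM in TAC-BacNav mice 1 to 4, 673.0, 715.5, 1129 and 476.2 CPM in TAC-mScarlet mice 1 to 4, and 163.6, 148.4, 129.8 and 150.8 CPM in Sham-NT mice 1 to 4. TAC-mScarlet did not overlap either other group. The log2 fold change in TAC-mScarlet against Sham-NT was 2.34 ± 0.30 (SE; edgeR adjusted p = 0.00406), and it stayed called in 18 of 18 alternatives. In TAC-BacNav against TAC-mScarlet it was -1.53 ± 0.29 (SE; edgeR adjusted p = 0.780, against an unadjusted p of 0.000146), past the threshold in 2 alternatives, DESeq2 and the high-Fos side alone. Pln, phospholamban, and Slc8a1, the sodium-calcium exchanger, had -0.31 ± 0.15 and -0.14 ± 0.12 in TAC-mScarlet against Sham-NT (SE), neither called. Adcy6 and Adcy5, genes of adenylyl cyclases, which make cAMP, had -0.64 ± 0.19 and -0.10 ± 0.23 (SE; edgeR adjusted p = 0.0662 and 0.860). Adcy6 was called in DESeq2 and without TAC-mScarlet mouse 2. Myh6 and Myh7 are near-identical in sequence in parts. Myh7 shares 523 exon bases with the antisense gene Gm31251, 484 with Mhrt and 142 with Gm29015, and Atp2a2 shares 83 with Gm43361. Other genes named here share exon bases with an opposite-strand gene too. Among them are Pln (1644 with Gm47644), Adcy6 (605 with Gm29331), Myh6 (114 with Gm49130) and Dio2 (100 with Gm26512). Of 6 general T3-responsive genes such as Thrsp, Hr and Klf9, edgeR called none over all libraries in TAC-mScarlet against Sham-NT, where 5.17% of all genes were called. Ucp3, a mitochondrial uncoupling protein gene, had the largest difference (-1.58 ± 0.48, SE; edgeR adjusted p = 0.0829). It was called in DESeq2, in limma-voom, with mouse number as block, with the Fos set as covariate, on the low-Fos side alone and without TAC-mScarlet mouse 2.

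**Figure D4:**
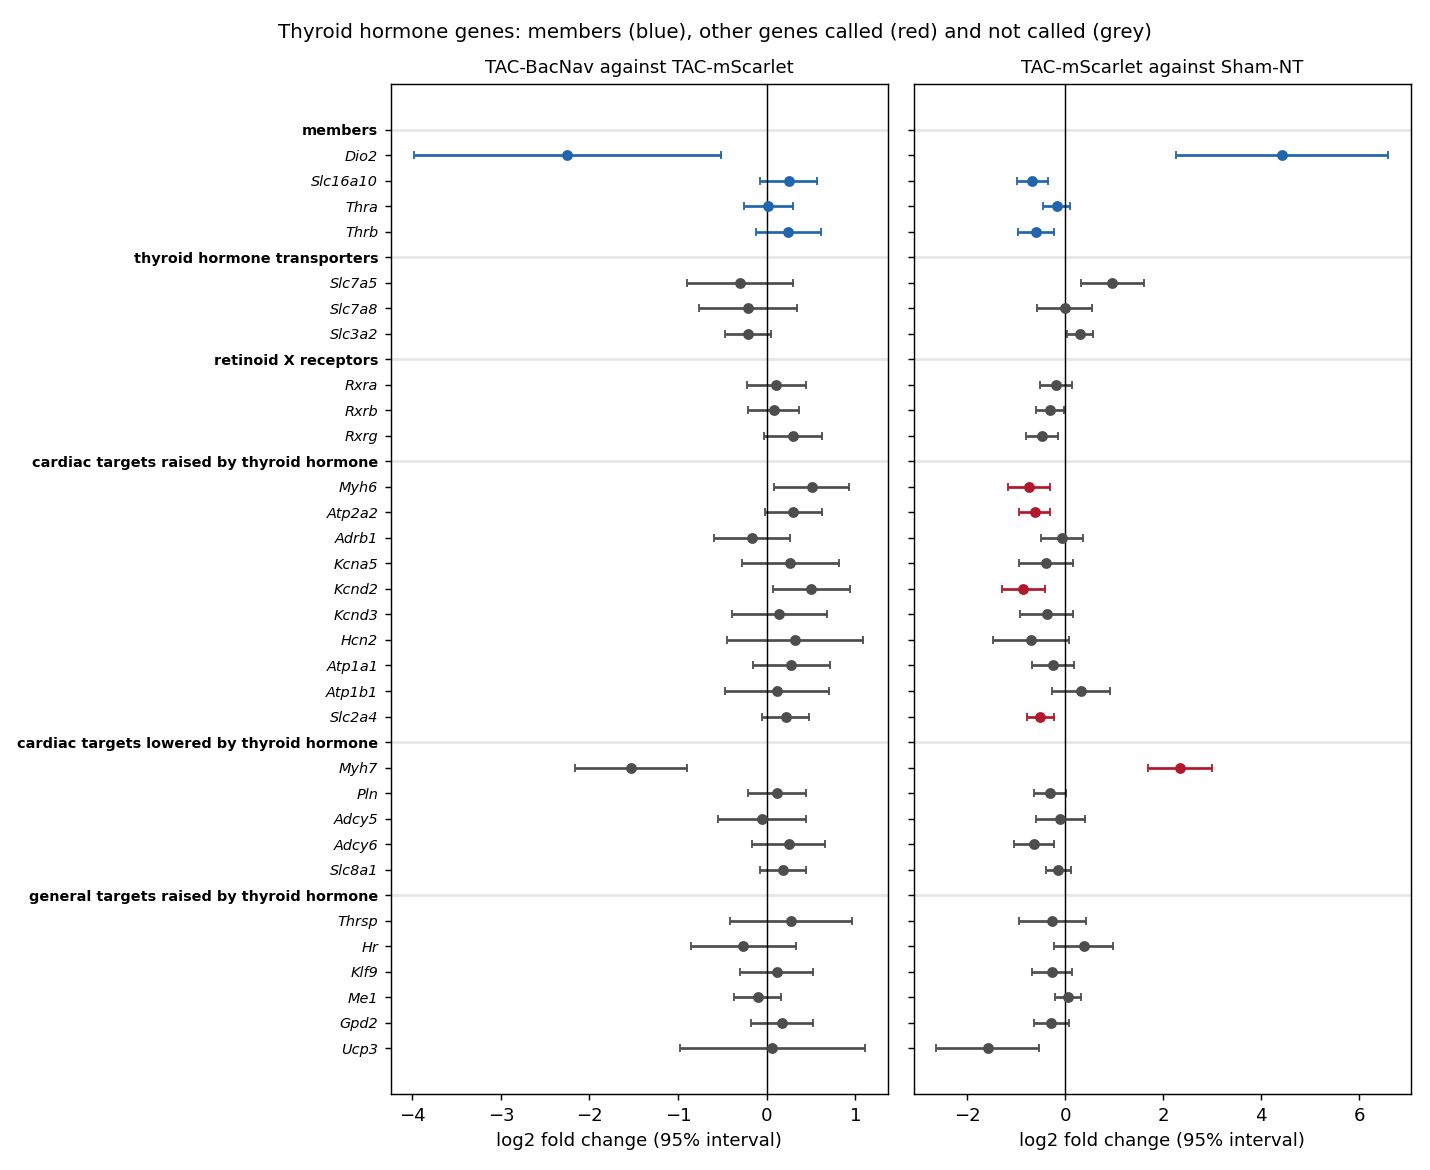
Log2 fold change with 95% interval (x axis) in TAC-BacNav against TAC-mScarlet (left) and TAC-mScarlet against Sham-NT (right) for the 4 genes followed here (blue, no call shown) and for genes of 5 thyroid hormone lists, with those called by edgeR in red and others in grey. Dio2 lies at -2.25 on the left and 4.42 on the right, and the 5 red genes on the right are Myh7, higher, and Myh6, Atp2a2, Kcnd2 and Slc2a4, lower.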

How the data were processed

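The deposited files hold raw counts, one whole number per gene and mouse, made by the authors with HISAT2 and featureCounts per the submitters' processing notes. The sources used here give no versions, no strand setting and no rule for the low-count filter the tables had passed (smallest gene total 30 counts). The notes name the build GRCh38, yet the gene identifiers are mouse: of 14957, 14946 matched GENCODE vM21 (GRCm38) without version and 14474 with it, and positions come from there. Total counts ran from 5.36 to 11.5 M per library. Libraries of 1 group differed by more than counting noise, with a chi-square of at least 5.35 per degree of freedom for every pair.

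Genes were filtered with filterByExpr by group (13910 kept, 1047 removed). One quasi-likelihood model (edgeR 4.0.16, R 4.3.3, TMM, robust) was fitted to all 12 libraries, tested two-sided, Benjamini-Hochberg adjusted over all genes and called under 0.05. SE is the size of the log2 fold change over the square root of F. Alternatives used DESeq2 1.42.0, limma 3.58.1 (voom), other scaling, no filter, libraries left out, the mouse number as block, and Fos sets split at 20 CPM. Each mouse is a separate animal. The tests were run on simulated counts drawn independently around the mean of each gene. These held no Fos sets and no outlying library, so that run does not vouch for the calls in these data.

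The 4 genes and all lists were chosen with earlier results of these data known; Myh6, Myh7, Atp2a2, Pln, Slc8a1 and Kcnd2 had values there. Genes named were the 4, called list genes and up to 4 uncalled genes per list, Nr1d1, markers, and the 3 regularly named genes most like each of the 4. Promoters came from RefSeq (3 of 4 genes matched; Thra was named only). Some genes that this rule names are not reported here, though list counts include them.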

Additional observations from a re-analysis of the deposited data

Results flagged for a closer look

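Over 11 genes in 3 groups (33 groups of 4 libraries), 3 values stood far from the other 3 of their group, where chance alone would pick about 1 group in 20. Myh6 was 4764 CPM in TAC-mScarlet mouse 3, against 9208 to 9315 CPM in the other TAC-mScarlet mice, a gap of 0.977 of the group's range. Atp2a2 was 7061 CPM in the same library, against 10440 to 11050 CPM in the others (0.846 of the range). Kcnd2 was 36.0 CPM in Sham-NT mouse 3, against 21.4 to 23.9 CPM in the other Sham-NT mice (0.831 of the range). TAC-mScarlet mouse 3 is also the library with the highest Dio2, Postn and fibroblast marker levels.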

How the results depend on the processing

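Of 216 alternative values of the 12 fold changes of the 4 genes, 214 moved by less than the spread between libraries, and the only sign changes were 5 of Thra in TAC-BacNav against TAC-mScarlet. That spread is the SD of log2(CPM + 1) within the 2 groups compared. Leaving out 1 of 4 libraries can hardly shift a fold change that far, so for those alternatives the count was nearly fixed in advance. Dio2 in TAC-BacNav against TAC-mScarlet went from -2.25 to -1.32 without TAC-mScarlet mouse 3 and counts as unmoved. Dio2 moved most on the high-Fos side, where TAC-BacNav gave -3.58 against TAC-mScarlet and 0.94 against Sham-NT. In TAC-mScarlet against Sham-NT the genes called were 719, against 1371 in DESeq2, 475 in limma-voom, 1459 with the Fos set as covariate, 96 on the low-Fos side and 14 to 1055 with 1 library left out (256 without Sham-NT mouse 1, 14 without mouse 2, 20 without mouse 4, 97 without TAC-mScarlet mouse 3, 228 without mouse 4). Thyroid list genes called, 6, became 10 in DESeq2, 10 with the covariate, 3 on the high-Fos side, 2 on the low-Fos side and 1 to 7 with 1 library left out. In TAC-BacNav against TAC-mScarlet, where 0 were called, DESeq2 gave 5, the high-Fos side 2 and the 2 groups alone 1; list genes were 1 in DESeq2 and 1 on the high-Fos side, and the count stayed 0 with 1 library left out. In TAC-BacNav against Sham-NT, where 2 were called, DESeq2 gave 38, the covariate 8, the high-Fos side 4, the low-Fos side 34 and the 2 groups alone 1, with 0 to 15 when 1 library was left out; the list genes numbered 1 in DESeq2. The cause of these changes was not tested, beyond the smaller number of libraries in some. The labels do not say that mouse numbers pair the samples, and correlations of same-numbered mice ran from -0.318 to 0.414 (8 of 12 above 0.1; 7 of 24 best matches had their own number), so no pairing was taken. Mice 1 and 2 were on the high-Fos side and mouse 4 on the low-Fos side in all 3 groups, and mouse 3 was on the high-Fos side in TAC-mScarlet and the low-Fos side in TAC-BacNav and Sham-NT. With the mouse number as replicate block the calls were 889 genes and 7 list genes in TAC-mScarlet against Sham-NT, 12 genes in TAC-BacNav against Sham-NT and 6 in TAC-BacNav against TAC-mScarlet. Depth limits Dio2 in Sham-NT most, at 8 to 16 counts per library.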
